A study of Mus musculus with 15 samples.

Results

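The annexin genes Anxa1 to Anxa7 and the galectin genes Lgals1 and Lgals3 were followed in mouse embryonic stem (ES) cells with and without Srf, the gene of serum response factor. The 9 genes are read by 11 probe sets, of 12588 probe sets that are not controls on the Affymetrix MGU74A array. They were found by gene symbol through the platform's annotation, and Anxa1 and Lgals3 had been selected on their measured difference between Srf-null cells and the other lines. For these 2 genes that difference is given as a description, without a test, and the other 7 genes are their family members on the array. The lines were E100-/- cells, which lack Srf (Srf-null below), an E100-/- rescue line (rescue below) and wild-type E14 cells. Each line was given fetal bovine serum for 0, 10, 30, 60 or 180 min, and total RNA was hybridised to 1 array per line and time, 15 arrays in all. The labels name 1 line of each genotype, do not describe the rescue construct and do not say whether the arrays came from separate cultures. The 5 arrays of a line therefore stand in for replicates once time is a term of the fit, and p-values measure only the spread between these arrays.

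Annexins are calcium-dependent proteins that bind negatively charged membrane phospholipids and link membranes to the actin cytoskeleton and to vesicle traffic. Galectins are lectins for beta-galactosides that leave the cell without a signal peptide and cross-link glycoproteins at the cell surface. Serum response factor is a transcription factor that binds the CArG box and drives serum-induced early genes and many genes of the actin cytoskeleton. Serum reaches it through mitogen-activated kinases and through actin itself.

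Values are normalized intensities, on which every array has the same distribution. Values at or below a floor of 85.0, the 40th percentile of all normalized values, were treated as background and set to the floor before log2. Intensities of different probe sets were not compared with each other. Of the 11 probe sets, 10 were above the floor on at least 2 arrays and were tested. A call is a Benjamini-Hochberg adjusted p under 0.05 from limma's moderated test over all 9558 probe sets tested, or over 9198 where the 0 min arrays were left out. For Srf-null cells against both other lines, a call also needed the difference to have the same sign against each of those lines. No probe set annotated to Srf was analysed here, so the genotype labels were not checked on the gene itself. The defining ES cell markers Pou5f1, Sox2 and Zfp42 were above the floor on all 15 arrays. Arrays differed in quality. Between 24.9% and 41.6% of an array's deposited values were at or below 0. Signal of the Actb control's 3′ end over that of its 5′ end, which is high in degraded RNA, was 2.94 on the Srf-null 0 min array, 4.22 on the rescue 0 min array and 7.53 on the wild-type 0 min array. On the 12 later arrays it reached at most 3.83, on the Srf-null 60 min array. The same ratio for Gapdh set partly other arrays apart: it was 1.27, 0.722 and 1.51 on those 0 min arrays, 0.785 at 60 min in Srf-null cells and 1.23 at 180 min in wild-type cells. The rescue 0 min array correlated best with an Srf-null array, that of 180 min (r = 0.939 across probe sets). This did not set it apart from later arrays. The rescue 10 min array was nearest to Srf-null 30 min (r = 0.943), and wild-type 30 min to Srf-null 10 min (r = 0.944). Given the differences in array quality, the lines were compared both over all 15 arrays and over the 12 arrays from 10 min on. The part of array quality in the results below was not tested beyond these fits and those with quality as a term.

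Anxa1, known as an anti-inflammatory annexin and a substrate of the epidermal growth factor receptor kinase, was low in Srf-null cells, at background on 2 of 5 arrays, and above it on every array of both other lines. Its main probe set, of the _f kind, read 89.7, 199, 284, -92.8 and 13.6 at 0, 10, 30, 60 and 180 min in Srf-null cells. At the same times it read 304, 813, 973, 1315 and 1420.1 in rescue cells. Wild-type cells gave 296, 849.8, 1068, 1195 and 1823. Every Srf-null array lay below every other array, and the Srf-null arrays of 60 and 180 min were at background. In the 10 min to 180 min arrays the log2 mean was 7.15 ± 0.88 in Srf-null cells, 10.11 ± 0.38 in rescue cells and 10.21 ± 0.46 in wild-type cells (SD, n = 4 arrays each). The log2 difference of Srf-null cells from the mean of both other lines was -2.76 ± 0.39 (SE) over 15 arrays and -3.01 ± 0.40 from 10 min on. Because 2 Srf-null arrays were held at the floor, these differences are set in part by the floor: with the floor at the 50th percentile the second was -2.25.

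The array has 2 further probe sets for Anxa1, and neither was bright enough to carry the pattern alone. The probe set of the _i kind, built from the same record as the main one, was at or below the floor on all 5 Srf-null arrays, with readings between -31.8 and 30.0. It read 79.4, 95.9, 91.1, 154 and 165 in rescue cells and 2.21, 139.7, 2.41, 242 and 3.93 in wild-type cells, above the floor on 4 and 2 arrays of these lines. The remaining probe set, also of the _f kind, was above the floor on 0 of 15 arrays and was not tested. In Affymetrix names the ending _f marks probes shared by related sequences, so the main probe set may also read other transcripts.

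**Figure D1:**
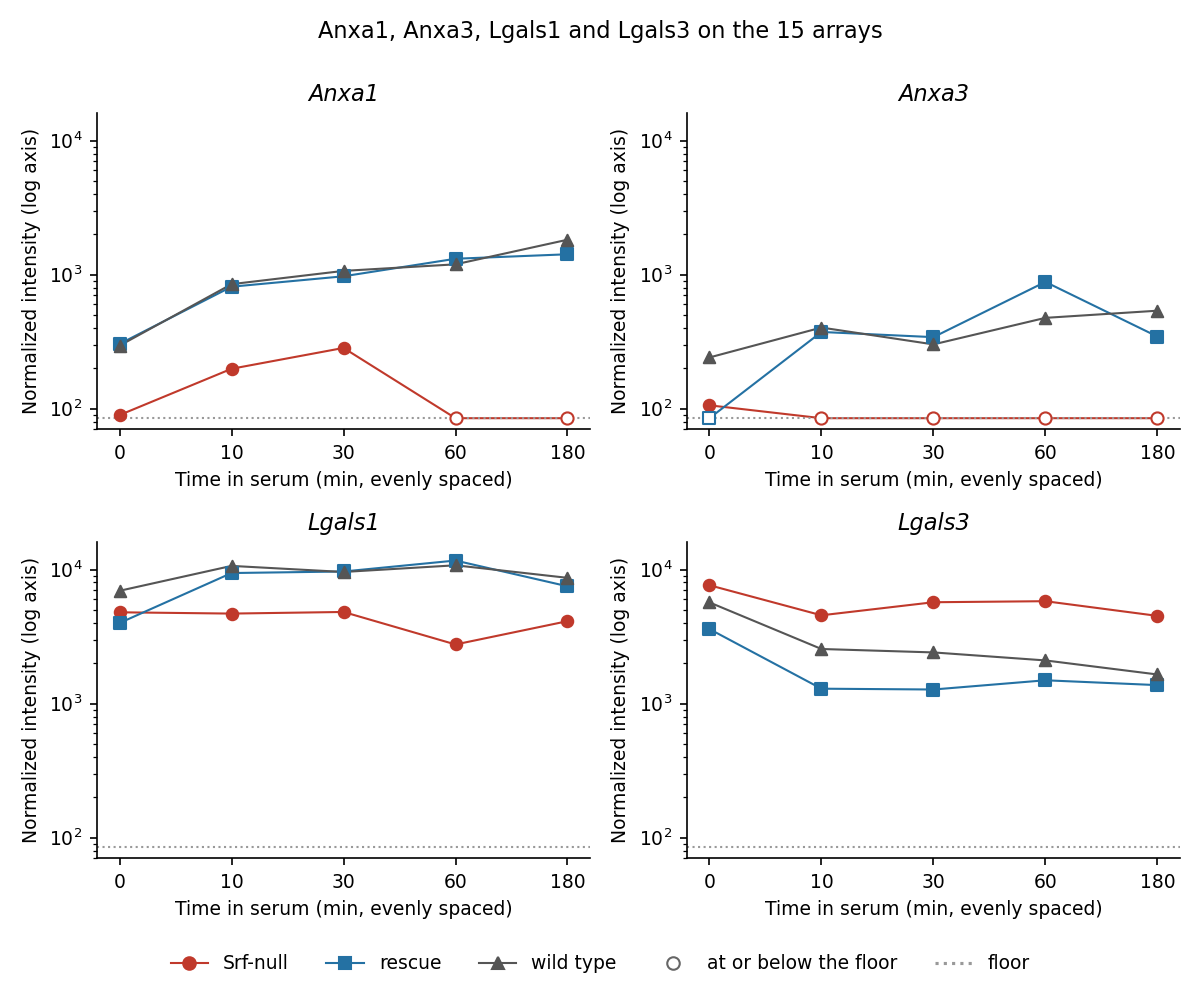
Normalized intensity (log axis) of Anxa1, Anxa3, Lgals1 and Lgals3 against time in serum, 1 point per array, with Srf-null, rescue and wild-type cells as separate lines and open symbols for arrays at or below the floor of 85.0. From 10 min on, the 4 Srf-null arrays lie below the other 8 for Anxa1, Anxa3 and Lgals1 and above them for Lgals3.

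Anxa1 lies on the minus strand at chr19:20373434-20390671 and Lgals3 on the plus strand at chr14:47373860-47386167 (RefSeq, GRCm38.p6). The 250 bases before each start site are shown because these 2 genes were selected for opposite differences in cells without a CArG-binding factor. Capitals mark TATAAA, searched on both strands. The CArG box, also searched on both strands, had no match in either sequence.
Anxa1, chr19:20390672-20390921, minus strand: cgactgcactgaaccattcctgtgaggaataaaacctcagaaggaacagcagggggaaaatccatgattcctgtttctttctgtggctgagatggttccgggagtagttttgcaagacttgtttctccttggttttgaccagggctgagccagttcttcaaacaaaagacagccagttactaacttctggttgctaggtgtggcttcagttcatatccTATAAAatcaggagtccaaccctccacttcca
Lgals3, chr14:47373610-47373859, plus strand: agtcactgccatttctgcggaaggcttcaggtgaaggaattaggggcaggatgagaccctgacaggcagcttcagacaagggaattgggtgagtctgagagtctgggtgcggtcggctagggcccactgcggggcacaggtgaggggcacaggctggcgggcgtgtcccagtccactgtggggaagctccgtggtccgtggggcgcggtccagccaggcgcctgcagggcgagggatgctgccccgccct
RefSeq windows of 300 bases, with 50 bases after the start site, were at hand for 6 of the 9 genes (8 windows). TATAAA occurred in those of Anxa1, its first base 32 bases before the start, and Anxa2, 17 bases before the start. It occurred in 13.6% of all 32851 such windows. Of the 8 windows 1 held a CArG box, that of Anxa5, against 1.63% of all windows, and it did not overlap a TATAAA. Its first base was base 26 of the transcript, and the 30 bases around it are shown because it was the one match, in capitals.
Anxa5, chr3:36475843-36475872, minus strand: cgggctgggaCCTAATTAGGgaggtggcca
A match is a stretch of letters and says nothing about binding, and Anxa5 is described below as a gene with no call between lines.

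Lgals3, the galectin with a long collagen-like tail that is found in the cytoplasm, the nucleus and outside the cell, ran the other way. It read 7632, 4554, 5699, 5802 and 4509 in Srf-null cells at 0, 10, 30, 60 and 180 min. In rescue cells it read 3593, 1291, 1273, 1491 and 1372. In wild-type cells it read 5683, 2553, 2407, 2097 and 1648. All Srf-null arrays from 10 min on were above all others; at 0 min the wild-type array lay inside the Srf-null range. The log2 difference of Srf-null cells from the mean of both other lines was 1.42 ± 0.15 (SE) over 15 arrays and 1.58 ± 0.12 from 10 min on. Time by time, Srf-null minus wild type was 0.43, 0.84, 1.24, 1.47 and 1.45 on the log2 scale from 0 to 180 min. Srf-null minus rescue was 1.09, 1.82, 2.16, 1.96 and 1.72. The highest Lgals3 reading of each line was at 0 min.

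Over all probe sets tested, 0.136% were called between Srf-null cells and both other lines on 15 arrays, and 1.55% from 10 min on (0.913% lower and the rest higher in Srf-null cells). Of the 9 genes, only Anxa1 had all 5 Srf-null arrays below all 10 others, as did 0.126% of all probe sets; none had them all above, as 0.0942% did. On the 12 later arrays, Anxa1, Anxa3 and Lgals1 had all Srf-null arrays below all others, against 1.23% of probe sets. Lgals3 had them all above, against 1.16%. The counts for Anxa1 and Lgals3 follow from how these genes were selected.

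Among the 7 family members, 2 fell in Srf-null cells from 10 min on, Lgals1 and Anxa3, and 0 were called over all 15 arrays. Lgals1, the dimer-forming galectin that binds integrins and laminin on many cells, read 4795, 4690.1, 4822, 2759 and 4117 in Srf-null cells in order of time. It read 3989.9, 9412, 9664, 11666 and 7495 in rescue cells and 6938, 10640.3, 9586, 10752 and 8666 in wild-type cells. At the 4 later times the Srf-null arrays reached at most 4822 and the others read at least 7495, while at 0 min the rescue array lay within the Srf-null range. The log2 difference of Srf-null cells from both other lines was -1.27 ± 0.16 from 10 min on (limma, adjusted p = 0.00481, lower at 4 of 4 times). Over 15 arrays it was -1.04 ± 0.20 (adjusted p = 0.0809). Lgals1 lies at chr15:78926725-78930465 (GRCm38.p6). From 10 min on the 2 galectins thus differed in direction, with Lgals1 lower and Lgals3 higher in Srf-null cells. The direction of Lgals3 is the one it was selected on.

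Anxa3, an annexin that inhibits phospholipase in vitro, resembled Anxa1. It read 106, 1.32, -60.4, -53.8 and -133 in Srf-null cells, with only the 0 min array above the floor. Rescue cells gave -74.7, 374, 342, 883 and 346, with only the 0 min array at background. Wild-type cells gave 241, 403, 302, 476 and 539, all above the floor. Anxa3 was thus at background on every Srf-null array from 10 min on, and passed the filter there through the other lines alone. The log2 difference of -2.35 ± 0.35 (adjusted p = 0.0111, lower at 4 of 4 times) is measured against the floor, and its size depends on the floor chosen. The Srf-null readings, tied at the floor, had no spread of their own, so the SE and the adjusted p rest on the floor as well. Over 15 arrays the difference was -1.96 ± 0.41 (adjusted p = 0.105). Anxa3 lies at chr5:96793385-96845968. With the floor at the 50th percentile the later difference was -0.92, with an adjusted p of 0.0912, and without the Srf-null 60 min array the adjusted p was 0.0501.

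Both calls ended when the share of an array's values at or below 0 was added to the 12-array fit: the difference was then -1.09 for Lgals1 (adjusted p = 0.167) and -2.21 for Anxa3 (adjusted p = 0.197). Without scaling between arrays they were -1.22 (adjusted p = 0.397) and -2.51 (adjusted p = 0.122). From 10 to 180 min the share was 26.7, 39.0, 41.6 and 37.1% on the Srf-null arrays. It was 37.4, 26.0, 25.0 and 25.2% on the rescue arrays and 25.1, 27.2, 24.9 and 27.5% on the wild-type arrays. The share thus went largely with the line, and in this fit the 2 cannot be fully told apart. Its part in the calls was not tested otherwise.

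**Figure D2:**
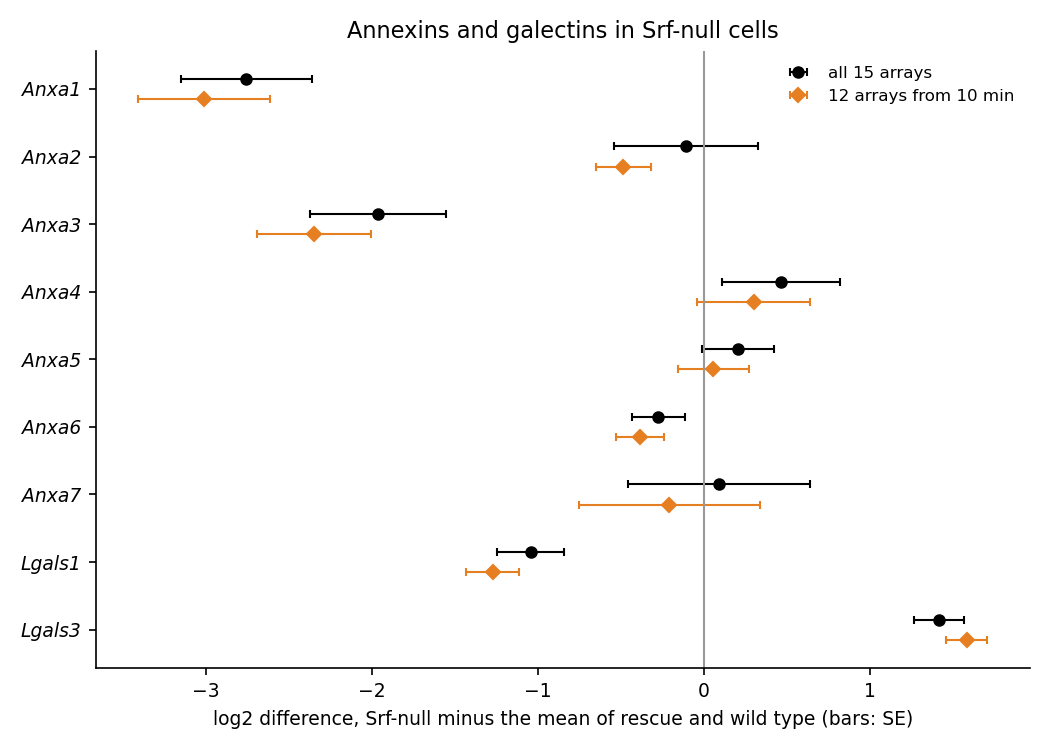
Log2 difference of Srf-null cells from the mean of rescue and wild-type cells for each gene, over all 15 arrays (circles) and over the 12 arrays from 10 min on (diamonds), with bars of 1 SE. Anxa1, Anxa3 and Lgals1 lie left of 0, Lgals3 lies at 1.42 and 1.58, and the other annexins lie between -0.48 and 0.46.

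The other annexins were not called between Srf-null cells and both other lines, with either set of arrays. Anxa2 forms a complex with S100a10 that binds plasminogen activators at the cell surface. It read 1013, 1939.6, 2036, 1269 and 1809 in Srf-null cells, 1732, 3161, 3563, 4117 and 2528 in rescue cells and -216, 2048, 1584, 1916 and 1654 in wild-type cells. Its wild-type 0 min array was at background while its other arrays, in all lines, read at least 1013. The Srf-null and wild-type arrays from 10 min on overlapped, and the rescue arrays stood above both, a pattern whose share among all probe sets was not counted. The log2 difference of Srf-null cells from both other lines was -0.11 ± 0.43 over 15 arrays (adjusted p = 0.949) and -0.48 ± 0.17 from 10 min on (adjusted p = 0.212).

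Anxa4, an annexin of epithelial membranes, read 782, 853, 653, 383 and 560.5 in Srf-null cells, 215, 407, 404, 519 and 573 in rescue cells and 606, 539, 819, 473 and 268 in wild-type cells. Its lines overlapped, and the difference of Srf-null cells was 0.46 ± 0.35 over 15 arrays. Anxa5, which binds phosphatidylserine and is widely used to stain dying cells, read 3945, 2081, 2686, 3219 and 2565 in Srf-null cells, 1629.9, 2831, 1402, 3337 and 2196 in rescue cells and 3192, 1862, 3485, 3039 and 2704 in wild-type cells. Its lines overlapped too, with a difference of 0.20 ± 0.22. Anxa7, the annexin first described as synexin for its part in membrane fusion, read 756, 382, 357, 118 and 262 in Srf-null cells, 198, 374, 401, 552 and 417 in rescue cells and 474, 504, -221, 384 and 99.0 in wild-type cells. It crossed the floor within the wild-type line, and its difference of 0.09 ± 0.55 had the widest error of the 9 genes. The adjusted p-values of these 3 genes were between 0.685 and 0.968.

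Anxa6, an annexin with a longer core that acts in endocytosis and cholesterol transport, read 1810.2, 1246, 1345, 1541 and 1151 in Srf-null cells and 1139, 1710.0, 1606, 1428 and 1125 in rescue cells. It read 2259, 2544, 1941, 1691 and 2046 in wild-type cells, which were highest at every time. Srf-null minus wild type was -0.57 ± 0.19 over 15 arrays (adjusted p = 0.397) and -0.63 ± 0.17 from 10 min on (adjusted p = 0.179). Rescue minus wild type was -0.59 ± 0.19 over 15 arrays (adjusted p = 0.474). Srf-null and rescue cells thus lay on the same side of wild-type cells for Anxa6, by differences that were not called.

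**Figure D3:**
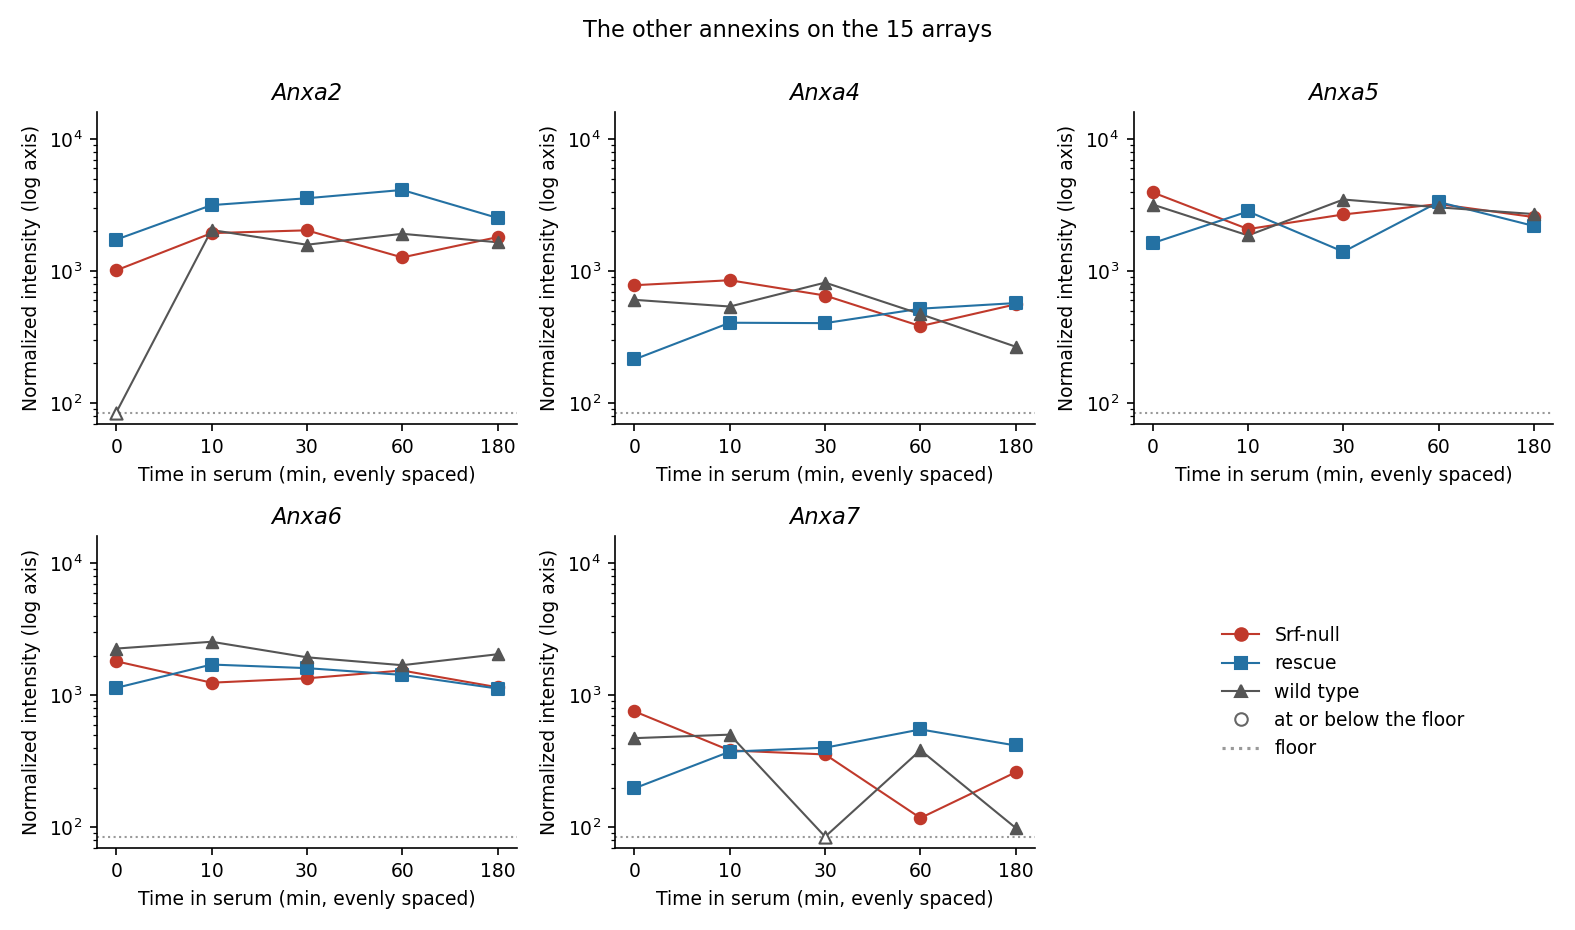
Normalized intensity (log axis) of Anxa2, Anxa4, Anxa5, Anxa6 and Anxa7 against time in serum, 1 point per array, with Srf-null, rescue and wild-type cells as separate lines. The rescue line is above the other lines at every time for Anxa2, and the wild-type line is highest at every time for Anxa6.

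The rescue line, set against Srf-null cells from 10 min on, had more Lgals1, Anxa3 and Anxa2. These arrays of Srf-null cells are the ones used above, so the comparison is not independent of it. Rescue minus Srf-null was 1.24 ± 0.18 for Lgals1 (adjusted p = 0.00786) and 2.39 ± 0.40 for Anxa3 (adjusted p = 0.0135, against the floor). For Anxa2 it was 0.92 ± 0.19 (adjusted p = 0.0362, higher at 4 of 4 times). In this comparison 2.4% of all probe sets were called. The Lgals1 call was lost with no scaling (adjusted p = 0.412) and with the share of values at or below 0 as a term (adjusted p = 0.0868). The Anxa3 call was lost in 6 of 17 other settings, with differences of 0.96 (floor at the 50th percentile) to 2.62 (no scaling) and a highest adjusted p of 0.136. The Anxa2 call was lost in 10 of 12 fits without 1 array, with differences of 0.70 to 1.04 and a highest adjusted p there of 0.159. Over all 17 other settings it was lost in 14, with a highest adjusted p of 0.887 (no scaling). With the share of values at or below 0 as a term its adjusted p was 0.254. The differences of Anxa1 and Lgals3, given as a description, were 2.96 ± 0.46 and -1.91 ± 0.14.

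Against wild-type cells, the rescue line showed no called difference in any of the 10 member probe sets by limma, either over 15 arrays or from 10 min on. At an unadjusted p under 0.05 there were 3 of 10 over 15 arrays and 3 of 10 from 10 min on. Over all probe sets 0% were called on 15 arrays (693 of 9558 at an unadjusted p under 0.05) and 0.522% from 10 min on (917 of 9198 at an unadjusted p under 0.05). Anxa1 was close in the 2 lines, at -0.10 ± 0.46 from 10 min on, as were Lgals1 at -0.06 ± 0.18 and Anxa3 at 0.08 ± 0.40. A difference that misses the threshold does not show the 2 lines to be alike, and the SE of Anxa1 alone was 0.46. Lgals3 was -0.66 ± 0.14 from 10 min on (adjusted p = 0.1003), lower in rescue cells at 4 of 4 times and also at 0 min. Anxa2 was 0.88 ± 0.19 (adjusted p = 0.102), higher in rescue cells at 4 of 4 times, and was called without the Srf-null 60 min array (adjusted p = 0.0301). It was 1.57 ± 0.50 over 15 arrays (adjusted p = 0.474), where the wild-type 0 min array was at background.

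**Figure D4:**
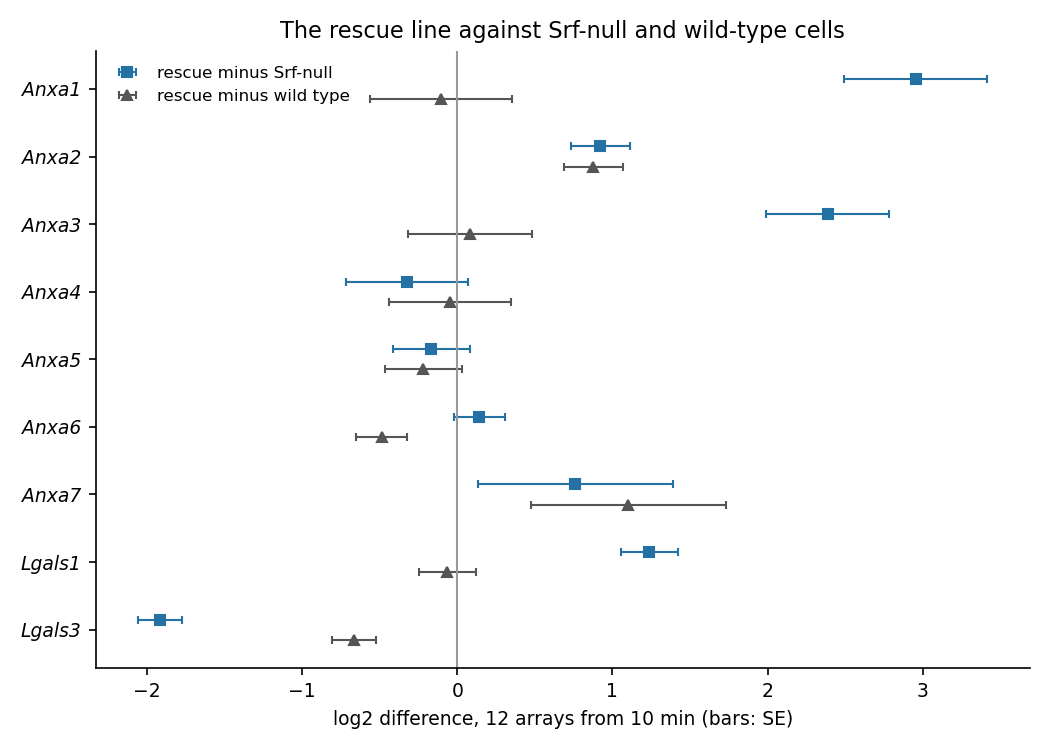
Log2 difference of the rescue line from Srf-null cells (squares) and from wild-type cells (triangles) for each gene over the 12 arrays from 10 min on, with bars of 1 SE. For Anxa1, Anxa3 and Lgals1 the triangles lie between -0.10 and 0.08; for Anxa2 the symbols lie at 0.92 and 0.88, and for Lgals3 both lie left of 0.

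Serum changed none of the members past the threshold. Early (30 and 60 min) and late (180 min) readings were set against 0 and 10 min in the 3 lines and in their mean, and the Srf-null response against that of the other lines. By limma 0 of 10 member probe sets were called in any of these 10 comparisons, and 0 had an unadjusted p under 0.05. Among all probe sets the early calls were 0% for the mean of lines, 0.0732% in Srf-null cells, 0% in rescue cells, 0% in wild-type cells and 0.0209% for the difference between lines. The late calls were 0.0523% for the mean, 0.0314% in Srf-null cells, 0% in rescue cells, 0.282% in wild-type cells and 0.0105% for the difference. At an unadjusted p under 0.05 the comparisons with 0 calls had between 243 and 380 probe sets.

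Anxa1 was higher at each later time than at the one before in both rescue and wild-type cells. Its late response was 1.51 ± 1.0 in rescue cells and 1.86 ± 1.0 in wild-type cells (log2 ± SE, adjusted p = 1 and 0.673), and -0.65 ± 1.0 in Srf-null cells (adjusted p = 1). The late response of Srf-null cells differed from that of the other lines by -2.34 ± 1.22 (adjusted p = 0.694), so the lines were not shown to respond differently. The size of the Anxa1 response rested in part on the 0 min arrays. Averaged over lines, its late response was 0.91 with them and 0.23 without them, and its early response 0.86 and 0.18. For Lgals3 the late response averaged over lines was -0.75 ± 0.36 (adjusted p = 1). Its early response was -0.48 ± 0.29 with the 0 min arrays and 0.08 ± 0.10 without them, so the sign rested on the 0 min arrays.

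Across the 15 arrays, Anxa1, Anxa3 and Lgals1 varied together and Lgals3 opposite to them. The points share the line, the array's scaling and its quality, so the correlations of log2 values are given as descriptions. Anxa1 and Lgals3 were selected for opposite differences of Srf-null cells, which largely sets the sign of the r between them. The same selection enters their r with genes that were lower in Srf-null cells. Anxa1 had a Pearson r of 0.886 with Anxa3 and 0.881 with Lgals1, and Anxa3 had 0.932 with Lgals1. Lgals3 had -0.880 with Anxa1, -0.815 with Anxa3 and -0.773 with Lgals1. Over the 12 arrays from 10 min on, Anxa1 had 0.914 with Anxa3, 0.916 with Lgals1 and -0.863 with Lgals3. Spearman correlations, which use ranks, were weaker on those arrays, at 0.806, 0.634 and -0.655. Anxa2 followed Anxa1 less closely, at a Pearson r of 0.346 over 15 arrays.

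**Figure D5:**
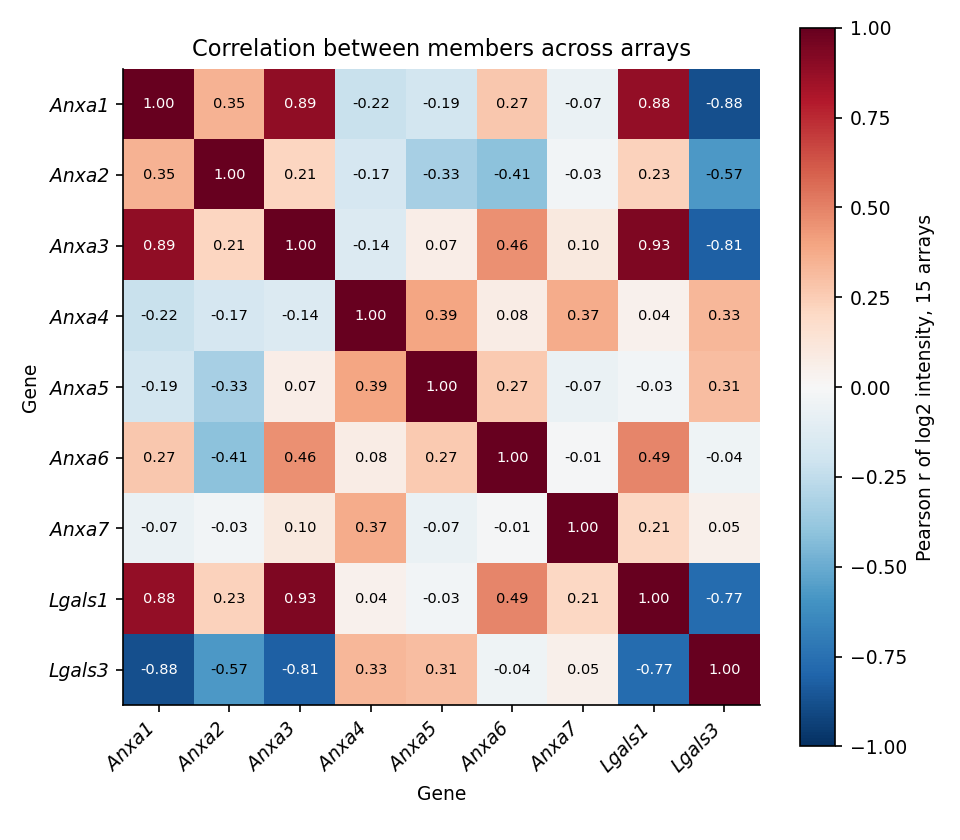
Pearson correlation of log2 intensity across the 15 arrays for each pair of the 9 genes, from -1 (blue) to 1 (red). Anxa1, Anxa3 and Lgals1 form the red block with r of 0.881 to 0.932, and Lgals3 is blue against all 3.

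Probe sets of 1 other gene were ranked by their r with Anxa1 (8041 over 15 arrays, 7777 from 10 min on) and with Lgals3 (8042 and 7778). Both genes were selected on their Srf-null difference, which favours probe sets with a like difference, so the ranking is a description. Those most like Anxa1 over 15 arrays were Gabarapl1 (r = 0.924), Sh3bgrl (0.912), Wls (0.905), Rad50 (0.905) and Bhlhe40 (0.897). From 10 min on they were Gabarapl1 (0.945), Sh3bgrl (0.944), Cnn2 (0.939), Slc25a4 (0.925) and Lgals1 (0.916). Cnn2, the actin-binding calponin 2, had medians of 21.9 in Srf-null cells, 633 in rescue cells and 799.6 in wild-type cells on those arrays. Its Srf-null median was under the floor, and it was above the floor on 8 of the 12 arrays. Sh3bgrl and Wls also had Srf-null medians under the floor, as had Slc9b2 and Fhod3, named below, in rescue cells. The r of these genes rests in part on the floor. Those most like Lgals3 over 15 arrays were Mapt (0.910), Defa23 (0.887), Mindy1 (0.873), Slc9b2 (0.867) and Laptm5 (0.865). Over the 12 later arrays they were Klf3 (0.942), Fhod3 (0.942), Slc9b2 (0.938), Laptm5 (0.933) and Tob1 (0.914). Laptm5, a lysosomal membrane protein, had medians of 5817 in Srf-null cells, 3187 in rescue cells and 3833 in wild-type cells from 10 min on. The probe set of Defa23 is of the shared _f kind.

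Genes whose products bind annexins or galectins were read from a list. Of 42 listed partners 29 had a probe set and 20 were tested, 18 of them from 10 min on. Over 15 arrays 0 of 20 were called between Srf-null cells and both other lines by limma, and 3 had an unadjusted p under 0.05, against 1001 of 9558 probe sets. The list's median log2 difference was 0.01, equal to the 0.01 of all probe sets. The lowest p-values were those of the integrin subunit Itgb1 (-0.46 ± 0.15, adjusted p = 0.312), Pdcd6ip, which binds the annexin partner Pdcd6 (-0.37 ± 0.14, adjusted p = 0.40) and Plaur (1.0 ± 0.45, adjusted p = 0.468). From 10 min on 1 of 18 was called, against 1.55% of all probe sets: Plaur, the urokinase receptor of the cell-surface plasminogen system. Plaur read 308, 461, 792, 1924 and 1308 in Srf-null cells, 784, 236, 232, 506 and 316 in rescue cells and 1001, 257, 184, 663 and 355 in wild-type cells. Its lines overlapped, and at 0 min the Srf-null array was the lowest of the 3. The difference from 10 min on was 1.63 ± 0.28 (adjusted p = 0.0234), higher at 4 of 4 times than in both other lines. This call was lost in 7 of 12 fits without 1 array and in 10 of 17 other settings in all, with a highest adjusted p of 0.698. Rescue minus Srf-null for Plaur was -1.68 ± 0.33 (adjusted p = 0.0288), a call lost in 8 of 12 fits without 1 array and in 11 of 17 other settings in all, with a highest adjusted p of 0.849.

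S100a10, the partner of Anxa2, did not follow it in the rescue line. It read 5513, 5156, 5447, 4479.5 and 4558 in Srf-null cells, 4752, 3697, 3978, 3432 and 3391 in rescue cells and 6239, 5057, 6425, 5654 and 5093 in wild-type cells. At the 4 later times the rescue arrays were below all others, while the rescue readings of Anxa2 were above all others. How many of all probe sets had the rescue arrays apart in either way was not counted. Rescue minus wild type was -0.61 ± 0.09 from 10 min on (adjusted p = 0.0216) and -0.57 ± 0.10 over 15 arrays (adjusted p = 0.115). Rescue minus Srf-null was -0.44 ± 0.09 from 10 min on (adjusted p = 0.0395). The first call was lost in 9 of 12 fits without 1 array and the second in 11 of 12, with highest adjusted p-values there of 0.142 and 0.181. Over all 17 other settings they were lost in 12 and in 15. With common median scaling the differences were -0.64 (adjusted p = 0.50) and -0.22 (adjusted p = 0.647). With no scaling they were -0.36 and -0.32, also not called. S100a11, the partner of Anxa1, was not analysed here. Of the 20 partners over 15 arrays, 0 were called by limma for the early or the late response, each as the mean of lines. Of all probe sets 0% and 0.0523% were called there, so the count says little about the partners. The lowest early p-values were those of Pla2g4a (0.29 ± 0.12), Plat (-1.02 ± 0.55) and Mgat1 (0.50 ± 0.29). For the late response they were those of Lamp2 (0.68 ± 0.43), S100a4 (-1.15 ± 0.75) and S100a10 (-0.22 ± 0.15).

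In bulk RNA, fewer cells of a type and less RNA per cell cannot be told apart, so markers of other cells stand beside these results. Of 11 fibroblast feeder genes with a probe set, the defining Col1a2 was at background on all 15 arrays and Col1a1 and Col3a1 read at most 963 and 298. The summed level was 1119 to 2177 in Srf-null cells, 1336 to 2163 in rescue cells and 1386 to 3139 in wild-type cells. Those ranges overlapped. For 9 trophoblast genes it was 756 to 2313 in Srf-null cells, 2066 to 16894 in rescue cells and 1379 to 6727 in wild-type cells; of the defining markers Hand1 was at background on all arrays, Cdx2 was above the floor on 4 and Eomes on 14. Cdx2 reached 701 in Srf-null cells, 185 in rescue cells and 112 in wild-type cells, and Eomes 344, 322 and 364. Krt8 read 369 to 6340 in rescue cells, 948 to 3383 in wild-type cells and 400 to 715 in Srf-null cells. Krt18 read 201 to 7036, 310 to 2133 and 157 to 532 in the same order. Tfap2c read 987 to 4457 in rescue cells against at most 852 in Srf-null cells and 929 in wild-type cells. For 12 endoderm genes it was 6730.5 to 7945 in Srf-null cells, 7469.5 to 11495 in rescue cells and 6439 to 9917 in wild-type cells, with Gata4 above the floor on 13 arrays, Gata6 on 10 and Sox17 on 4. Lgals3 is itself abundant in macrophages, and for 7 other macrophage genes the sum was 2021 to 4158 in Srf-null cells, 2213 to 3432 in rescue cells and 2745 to 4656 in wild-type cells. Their defining Adgre1 and Itgam were each above the floor on 1 array and Csf1r on all 15. The part of other cells in the line differences was not tested.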

How the data were processed

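The authors deposited Affymetrix MGU74A intensity values on a linear scale, 1 per probe set and array, with values below 0; per the labels, total RNA of ES cells was hybridised, and the summarising software is not given in the sources used here. The members and gene lists were chosen with earlier results of these data known. Arrays were quantile-normalized (limma 3.58.1, R 4.3.3), set to a floor at the 40th percentile and put on the log2 scale. Of 12588 probe sets, 9558 were above the floor on at least 2 arrays and were tested. limma's lmFit and eBayes with an intensity trend used line and time as terms (8 residual degrees of freedom), or line by phase for serum (6). Probe sets were named through the platform annotation and RefSeq (GRCm38.p6), which give 1 symbol to 10298. All member probe sets are reported. Partners are named where called, or as the 3 of lowest p, with S100a10 always; the 5 most alike probe sets are named for Anxa1 and Lgals3. The fits were tested on simulated data, and other scalings, floors, filters, quality terms and sets of arrays were tried. Precision is limited by the number of arrays, by their quality and, near background, by the floor.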

Additional observations from a re-analysis of the deposited data

Results flagged for a closer look

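Of 29 tests for an array standing apart from the other 4 of its line, 4 marked a reading, and chance marks about 1 in 20. Anxa2 read -216 on the wild-type 0 min array, below the other 4 wild-type arrays. Anxa3 read 106.0 on the Srf-null 0 min array, above the other 4, which were tied at the floor, so that any reading above the floor would have been marked. Lgals1 read 2759 on the Srf-null 60 min array, below the other 4. Lgals3 read 3593 on the rescue 0 min array, above the other 4. The wild-type 0 min, rescue 0 min and Srf-null 60 min arrays also had the 3 highest Actb 3′ to 5′ ratios, 7.53, 4.22 and 3.83, and the Srf-null 0 min array the next, 2.94; their Gapdh ratios were 1.51, 0.722, 0.785 and 1.27.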

How the results depend on the processing

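The differences of Anxa1 and Lgals3 between Srf-null cells and both other lines kept their sign in all 25 alternatives, at -3.01 to -1.88 and 1.21 to 1.58. Both genes were selected on this difference in these same arrays, so the kept sign is no separate support for it. From 10 min on they moved most with the floor at the 50th percentile (Anxa1, -2.25) and with common median scaling (Lgals3, 1.36). Family members called were 0 over 15 arrays, 2 without the 0 min arrays, 2 without the wild-type and rescue 0 min arrays, and 0 to 2 without 1 array (2 without the Srf-null 0 min or the rescue 0 min array). Settings for the 12 later arrays were chosen after seeing the data: there the 2 calls became 0 with no scaling, 1 with the floor at the 50th percentile, 0 with the share of values at or below 0 as a term, and 1 to 2 without 1 array (1 without Srf-null 60 min). The adjusted p ranged from 0.0218 to 0.197 for Anxa3 and from 0.0023 to 0.397 for Lgals1 over those 17 settings. Partners called were 0, but 1 without the 0 min arrays or without the wild-type and rescue 0 min arrays, and 0 to 1 without 1 array. Members called for the wild-type serum response were 0 to 1 without 1 array, early and late: Anxa2 was called without the wild-type 10 min array, at 4.36 (adjusted p = 0.0146) and 4.28 (adjusted p = 0.0295), against a baseline of the wild-type 0 min array alone. Some differences that were not called changed sign. Rescue minus wild type for Anxa1 was 0.10 with no scaling, 0.12 with the share term and -0.26 to 0.16 without 1 array. For Anxa3 it was 0.048 with the floor at the 50th percentile, 0.080 without the 0 min arrays, 0.080 without the wild-type and rescue 0 min arrays and -0.57 to 0.19 without 1 array. For Lgals1 it was 0.064 with no scaling and -0.39 to 0.013 without 1 array. Srf-null minus both for Anxa2 was 0.036 with the share term and -0.48 to 0.15 without 1 array. For Anxa5 it was -0.018 with common median scaling and -0.0051 with no scaling. For Anxa7 it was -0.25, -0.34, -0.21 and -0.21 with common median scaling, no scaling, no 0 min arrays and no wild-type and rescue 0 min arrays, and -0.21 to 0.61 without 1 array. The early Lgals3 response was 0.082 without the 0 min arrays. The causes were not tested. Common median scaling and no scaling moved the median Srf-null difference of all probe sets to -0.22 and -0.23, so values there are relative to that shift. Of all probe sets 13 were called over 15 arrays, against 143 without the 0 min arrays, 133 without the wild-type and rescue 0 min arrays, 67 without Srf-null 0 min, 52 without rescue 0 min, 8 with the 18S term, 1 with no scaling, 0 with the share term and 2 to 67 without 1 array. A floor at the 30th percentile was not run because that percentile was not above 0. Time, at which the lines are matched with 1 array each, was a term of every fit between lines.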
